A study of Mus musculus with 10 samples.

Results

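The libraries described here were made from pancreatic islets of C57BL/6 mice given an isotype control antibody, and they are 5 of the 10 libraries of the series. They were taken by their titles, which name the islets and the isotype control and carry the numbers 6 to 10. The other 5 libraries came from mice given an antibody to the glucagon receptor (GCGR) and were not used here. The series concerns alpha cell hyperplasia under inhibition of that receptor, and the isotype libraries are its control state. An isotype control antibody has the class of the test antibody but does not bind its target, so these mice were injected but not receptor-blocked. The islets had been enriched by their buoyancy in Histopaque, with no sorting of cell types. Nextera XT libraries were made from polyA RNA, and this kit keeps no strand information, so overlapping and antisense genes cannot be separated. Dose, duration of treatment, age, sex and batch are not given in the labels. Whether the libraries stem from different animals is not stated either, so the spread given below may in part be technical.

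Islets are clusters of endocrine cells scattered through the exocrine pancreas. Beta cells make insulin and lower blood glucose, alpha cells make glucagon and raise it, and delta cells make somatostatin, which restrains both. PP cells make pancreatic polypeptide, and epsilon cells make ghrelin. Around them lie acinar cells, which secrete digestive enzymes, duct cells, capillary endothelium, stromal cells and resident macrophages, and RNA of these cells can travel with an islet preparation.

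The start regions of 4 hormone genes are shown because each of these genes marks a different endocrine cell type and lies among the most abundant transcripts of the 5 libraries. Each window runs from 250 bases before to 50 bases after the gene start in RefSeq (build GRCm38.p6), in the direction of transcription. Capitals mark matches, on either strand, to TATAAA (the TATA box letters), CATCTG (an E-box read by basic helix-loop-helix factors such as the product of Neurod1) or TGACGTCA (the cAMP response element letters).
Iapp, chr6:142298175-142298474, plus strand: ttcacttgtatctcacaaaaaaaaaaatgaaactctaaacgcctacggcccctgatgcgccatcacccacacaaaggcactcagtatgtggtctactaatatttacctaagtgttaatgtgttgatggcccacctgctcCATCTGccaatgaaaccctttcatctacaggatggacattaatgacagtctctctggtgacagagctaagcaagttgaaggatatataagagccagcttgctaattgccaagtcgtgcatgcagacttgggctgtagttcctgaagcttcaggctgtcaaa
Gcg, chr2:62483604-62483903, minus strand: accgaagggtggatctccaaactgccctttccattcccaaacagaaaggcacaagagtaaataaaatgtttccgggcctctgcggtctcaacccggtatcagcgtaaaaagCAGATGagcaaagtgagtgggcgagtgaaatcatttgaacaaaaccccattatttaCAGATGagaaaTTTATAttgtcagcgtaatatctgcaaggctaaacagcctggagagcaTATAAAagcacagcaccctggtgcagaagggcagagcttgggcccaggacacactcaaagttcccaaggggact
Sst, chr16:23890795-23891094, minus strand: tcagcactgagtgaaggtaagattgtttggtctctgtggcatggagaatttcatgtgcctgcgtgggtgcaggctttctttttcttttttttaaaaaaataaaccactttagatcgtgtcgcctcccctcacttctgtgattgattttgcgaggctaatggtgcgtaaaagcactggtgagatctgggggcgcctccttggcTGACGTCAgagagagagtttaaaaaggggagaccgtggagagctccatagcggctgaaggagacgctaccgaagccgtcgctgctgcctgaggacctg
Ppy, chr11:102101270-102101569, minus strand: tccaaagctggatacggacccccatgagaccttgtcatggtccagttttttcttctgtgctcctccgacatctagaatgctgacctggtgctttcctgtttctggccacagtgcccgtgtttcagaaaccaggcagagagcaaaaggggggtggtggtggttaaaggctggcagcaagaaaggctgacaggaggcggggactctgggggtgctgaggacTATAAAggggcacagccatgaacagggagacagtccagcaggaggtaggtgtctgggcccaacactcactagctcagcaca
The Iapp window held the E-box letters 111 bases before the start. The Gcg window held TATAAA 24 bases before the start and again, on the other strand, 72 bases before it, with E-box letters 83 and 139 bases before. The Sst window held TGACGTCA 48 bases before the start, and the Ppy window held TATAAA 31 bases before. TAAT, the core read by homeodomain factors, was also searched on both strands and matched 5 times in the Iapp window, 2 times in Gcg, 1 time in Sst and 0 times in Ppy; no match overlapped a different motif. Of 32851 RefSeq windows of the same length, 13.6% held TATAAA, 17.2% held CATCTG, 1.79% held TGACGTCA and 58.0% held TAAT. These matches describe letters and say nothing of binding in these islets.

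Levels are given in RPKM, a read number relative to transcript length and to the size of the library. The summed RPKM of a library ran from 709976 in replicate 10 to 883390 in replicate 8. Levels in different libraries are therefore not on exactly the same scale. Shares are percentages of the summed RPKM of a library, which weigh a transcript by its copies and not by its length. The libraries rested on an estimated 12360000 to 14840000 reads each. At that depth 0.5 RPKM of a transcript of 2 kb corresponds to 12.4 to 14.8 reads, so values below it rest on few reads. Of the 24475 genes in the table, 15549 were above 0 in all 5 libraries and 5462 were at 0 in all of them. A mean of at least 1 RPKM was reached by 12164 genes, a mean of at least 10 RPKM by 5753 and a mean of at least 100 RPKM by 536.

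Of the 5 libraries, 4 stood apart from the rest in some group of genes, and the shares of the lists that moved most with them are given with and without them. Replicate 10 had 368 genes at least 2-fold above the median of the other 4 libraries. It was the highest library for 4833 of the 12164 genes, and replicate 6 was the lowest for 4227. Replicate 6 had 525 genes at least 2-fold below that median, replicate 8 had 285 above it, and replicate 9 had 213 below it. Replicate 7 had 68 above and 118 below. Across these genes, which are not independent replicates, Spearman's rank correlation between libraries ran from 0.947 (replicates 6 and 10) to 0.981 (replicates 7 and 9).

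The transcriptome was dominated by insulin. Ins2 and Ins1, the 2 mouse insulin genes, held 49.9%, 45.6%, 46.0%, 44.8% and 36.7% of the summed RPKM in replicates 6, 7, 8, 9 and 10 (mean 44.6% ± 4.83, SD, n = 5). Replicates 6 to 9 lay close together and replicate 10 lay below them; without it the mean was 46.6%. Ins2 alone took 33.1% ± 4.86 and Ins1 11.5% ± 1.27. In bulk islets a lower share of a cell type's transcript can come from fewer such cells or from less of that RNA per cell, and these cannot be told apart.

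Very few genes made up most of the measured RNA. The 10 highest genes of each library held 55.5% ± 4.68, the 100 highest 67.8% ± 4.56 and the 1000 highest 82.9% ± 2.58 of the summed RPKM (SD, n = 5). The number of genes needed for 50% of the sum was 3 in replicate 6, 4 in replicates 7, 8 and 9, and 16 in replicate 10. For 90% it was 2117, 2410, 2132, 2779 and 3263 genes in replicates 6, 7, 8, 9 and 10. Replicate 6 was thus the most concentrated library and replicate 10 the most even. Means above 10000 RPKM were reached by 4 genes, Ins2, Ins1, Iapp and Gcg, which together held 50.4% of the sum.

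Among the 30 genes of highest mean level, 7 encoded islet hormones, 12 were mitochondrially encoded, and 2 encoded granule proteins of endocrine cells, Chga and Scg2. Of these 30 genes, 23 were in the top 30 of every library, and 37 genes were in the top 30 of any. Digestive enzyme genes also entered the top 30: Ctrb1 (chymotrypsinogen B), Prss2 (a trypsinogen), Cela1 (an elastase) and 3 amylase genes, Amy2a2, Amy2a3 and Amy2a4. The amylase genes held identical values (mean 1746 RPKM each), so no single copy can be read from the table. Rn45s, the ribosomal RNA precursor, ranked 9 with 7096, 4515, 3781, 7837 and 2757 RPKM, although polyA RNA was the labelled input. The remaining members were Eef1a1, a translation elongation factor (2451 ± 167 RPKM, SD, n = 5), and Clu, clusterin, a secreted chaperone, which was lowest in replicate 6 (494 RPKM) and highest in replicate 10 (2498 RPKM).

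**Figure D1:**
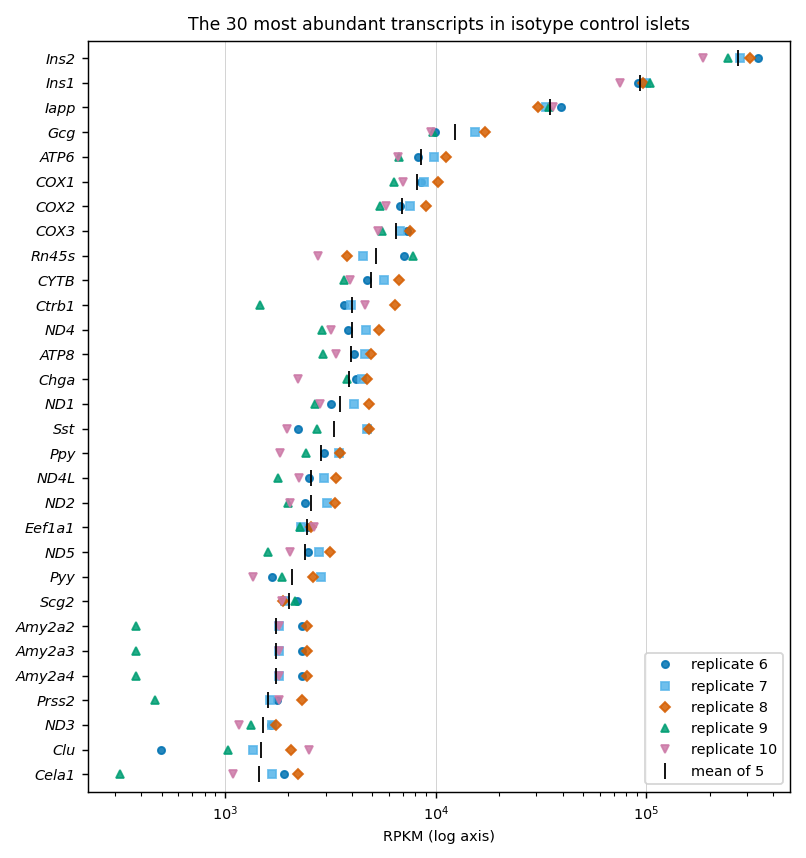
RPKM (log axis) of the 30 genes of highest mean level in each of the 5 isotype control libraries; each symbol is 1 library and the black tick is their mean. Ins2, Ins1, Iapp and Gcg keep the first places in the order of means, and replicate 9 stands to the left of the other libraries in Ctrb1, Prss2, Cela1 and the 3 Amy2a copies.

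**Figure D2:**
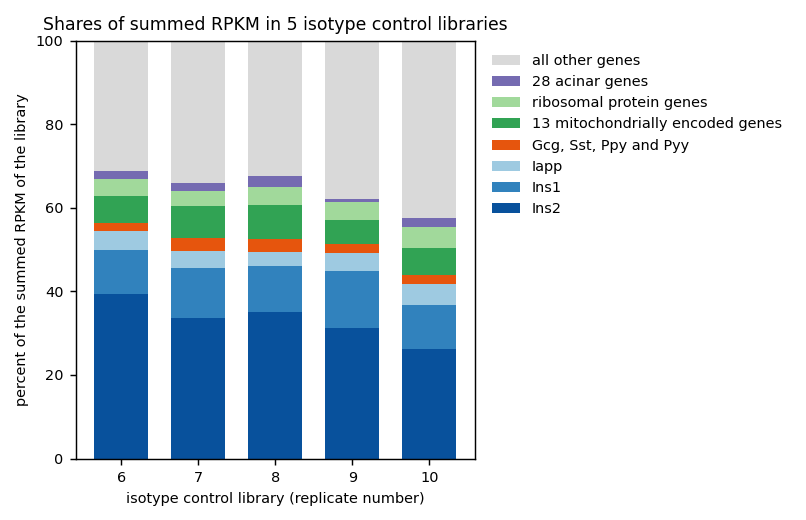
Percent of the summed RPKM of each library held by Ins2, Ins1, Iapp, the other 4 main hormone genes, 13 mitochondrially encoded genes, ribosomal protein genes, 28 acinar genes and all other genes. The insulin genes fall from 49.9% in replicate 6 to 36.7% in replicate 10, and all other genes take 31.3% to 42.4%.

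The hormone genes kept nearly the same order in every library. Ins2 (chromosome 7, 142678656 to 142679726, GRCm38.p6) stood at 340231, 278430, 310678, 243109 and 185966 RPKM. Ins1 (chromosome 19, 52264297 to 52265015), a copy of Ins2 that arose by retrotransposition, stood at 91020, 99098, 95810, 104429 and 74715 RPKM. Both insulin genes were lowest in replicate 10, but Ins2 was highest in replicate 6 and Ins1 in replicate 9. Their coding sequences are near-identical, so the division of reads between them is uncertain. As deposited, Ins2 exceeded Ins1 in 5 of 5 libraries, by 2.92-fold ± 0.575 (SD, n = 5, range 2.33 to 3.74).

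Iapp (chromosome 6, 142298425 to 142303820), whose product amylin is released with insulin from beta cells, stood at 39114, 33341, 30511, 34313 and 36164 RPKM. In RPKM it was the steadiest of the hormone genes, with a coefficient of variation (CV, the SD as a percentage of the mean) of 9.25%, against 22.1% for Ins2 and 12.2% for Ins1. This order did not hold for shares of the summed RPKM. There Iapp held 4.30% ± 0.610 and Ins1 11.5% ± 1.27 (SD, n = 5), so Ins1 varied less relative to its mean. Ins2 to Iapp was 7.89 ± 1.89 (SD, n = 5), with the highest ratio in replicate 8 (10.2) and the lowest in replicate 10 (5.14). Replicate 10 thus had the lowest Ins2 and Ins1 beside the second highest Iapp.

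Gcg (chromosome 2, 62474530 to 62483653), which encodes proglucagon, stood at 9887, 15377, 17038, 9684 and 9513 RPKM, a share of 1.504% ± 0.363 (SD, n = 5). Sst (chromosome 16, 23889573 to 23891342), somatostatin, stood at 2223, 4734, 4822, 2724 and 1967 RPKM. Both were high in replicates 7 and 8 and lower in replicates 6, 9 and 10. The Gcg to Sst ratio therefore varied less than either gene, 3.92 ± 0.680 (SD, n = 5), against CVs of 29.4% for Gcg and 42.0% for Sst. The ratio of both insulin genes to Gcg ran from 23.9 in replicate 8 to 43.6 in replicate 6 (31.1 ± 8.50, SD, n = 5).

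Ppy (chromosome 11, 102099931 to 102101319), pancreatic polypeptide, stood at 2934, 3491, 3531, 2422 and 1821 RPKM. Its neighbour Pyy (chromosome 11, 102106676 to 102107832), peptide YY of the same peptide family, stood at 1671, 2848, 2616, 1867 and 1352 RPKM. These genes too were highest in replicates 7 and 8 and lowest in replicate 10. Ppy exceeded Pyy in 5 of 5 libraries, with a ratio of 1.40 ± 0.208 (SD, n = 5) that was 1.76 in replicate 6 and 1.23 to 1.35 in the other 4. Sst exceeded Ppy in 4 of 5 libraries, with replicate 6 as the exception, so the order of these neighbours did not hold across the spread.

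The minor peptides lay far below. Ucn3, urocortin 3, a peptide of mature beta cells that acts on delta cells, had a mean of 209 ± 45.0 RPKM (SD, n = 5). Vip, a neuropeptide of nerve fibres, had 28.3 ± 17.0 RPKM, Npy, neuropeptide Y, 10.2 ± 5.27 RPKM, Ghrl, ghrelin, 4.08 ± 1.31 RPKM, and Gal, galanin, 3.65 ± 1.09 RPKM. The order from Ppy through Pyy, Ucn3, Vip, Npy and Ghrl held in 5 of 5 libraries, while Ghrl exceeded Gal in 3 of 5. Near or below 1 RPKM lay the neuropeptide genes Adcyap1 (1.005), Tac1 (0.930) and Penk (0.597), and the gut hormone genes Gast (0.698), Sct (0.428), Cck (0.317) and Nts (0.0606). Gip, the incretin gene of intestinal K cells, was listed at 0 in all 5 libraries.

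Beta cell genes other than the hormones were abundant as well. All 16 genes of the beta cell list, its hormone genes included, had means of at least 10 RPKM, and 12 of them at least 100 RPKM. The list held 49.3% ± 4.51 of the summed RPKM (SD, n = 5), or 51.03% without replicate 10. That share was carried by Ins2, Ins1 and Iapp, the 3 highest genes of each library, which held 48.9% of the summed RPKM on average. After the hormones, the highest was G6pc2, the islet glucose-6-phosphatase subunit that opposes glucokinase, at 746, 800, 866, 832 and 846 RPKM (CV 5.75%). Slc30a8, the zinc transporter of insulin granules, stood at 735, 350, 385, 334 and 423 RPKM. Slc2a2, the glucose transporter GLUT2, stood at 315, 152, 165, 167 and 174 RPKM. Both transporter genes were high in replicate 6 and close together in the other 4 libraries; both were named for their CVs, 37.1% and 34.9%, the largest of the list.

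The alpha cell list held 1.62% ± 0.378 of the sum, the delta cell list 0.415% ± 0.151 and the PP cell list 0.599% ± 0.129 (SD, n = 5). These shares were carried by their hormones. Among alpha cell genes Ttr, transthyretin, a thyroid hormone carrier, followed Gcg with 778 ± 171 RPKM, then Gc, the vitamin D-binding protein (73.9 ± 18.6), and Slc7a2, an arginine transporter (51.3 ± 7.33). Among the most variable of the 12 alpha cell genes at or above 1 RPKM was the transcription factor gene Irx1, at 1.72, 3.60, 3.33, 1.92 and 1.39 RPKM. Like Gcg, it was highest in replicates 7 and 8 and lowest in replicate 10. Pou3f4, another alpha cell factor gene, had a mean of 0.439 RPKM and was named after its value was seen.

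In the delta cell list Rbp4, retinol-binding protein, had 108 ± 27.4 RPKM, Hhex, the transcription factor of delta cells, 7.34 ± 1.19 RPKM, and Ghsr, the ghrelin receptor, 1.37 ± 0.246 RPKM (SD, n = 5). On average Gcg stood at 12299.9 and Sst at 3294 RPKM, so both hormones lay far above Irx1 and Hhex, factors of the cells that make them.

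Genes shared by all endocrine cells were the evenest of the cell type lists. The 16 pan-endocrine genes held 1.40% ± 0.1205 of the sum (SD, n = 5), with a 1.24-fold range between libraries and a median CV of 13.4%, below the 16.2% of all genes at or above 1 RPKM. Chga, chromogranin A, stood at 4172, 4447, 4725, 3809 and 2213 RPKM, so replicate 10 lay below the other 4. Scg2, secretogranin II, had 2003 ± 156 RPKM and Cpe, carboxypeptidase E, which trims prohormones, 1237 ± 87.4 RPKM. Chgb, chromogranin B, stood at 669, 1429, 1009, 1480 and 999 RPKM, lowest in replicate 6, where Chga was not low. The most variable member was Fev, a serotonergic factor gene (2.26 ± 0.938 RPKM, CV 41.5%).

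Prohormone processing genes held 0.5005% ± 0.0368 of the sum (SD, n = 5). Pcsk2, prohormone convertase 2, which releases glucagon from proglucagon and completes insulin, stood at 909, 900, 914, 908 and 770 RPKM, nearly equal in 4 libraries and lower in replicate 10. Pcsk1, prohormone convertase 1/3, which makes the first insulin cut and releases GLP-1, stood at 268, 278, 258, 285 and 367 RPKM. In replicate 10 the convertase genes thus moved apart, with the lowest Pcsk2 and the highest Pcsk1. This pairing was noticed after the values were seen.

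The secretory granule and exocytosis list held 1.13% ± 0.0963 of the sum, with all 22 members at or above 1 RPKM. Below the granins came Ptprn, the granule membrane protein IA-2, at 160, 359, 271, 275 and 248 RPKM. The most variable member was Vgf, a neuroendocrine granule peptide, at 6.54, 29.4, 19.7, 21.5 and 16.4 RPKM (CV 44.4%). As with Chgb, replicate 6 was the lowest library for Ptprn and for Vgf.

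Genes of glucose sensing and of the ATP-sensitive potassium channel held 0.239% ± 0.0272 of the sum, and all 16 had means of at least 1 RPKM. G6pc2, described above, was the highest. It was followed by Pkm, pyruvate kinase, with 349 ± 54.4 RPKM, Slc2a2, Abcc8, the sulfonylurea receptor subunit of the channel, with 170 ± 25.2 RPKM, and Mdh1, cytosolic malate dehydrogenase, with 169 ± 16.3 RPKM (SD, n = 5). Slc2a1, the transporter GLUT1, lay at 6.86 ± 1.76 RPKM, so GLUT2 transcript exceeded GLUT1 transcript in all 5 libraries. Their median CV was 14.9%.

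Another list held 12 genes that beta cells are known to keep low, among them genes whose silencing prevents insulin release to the wrong fuel. Its share was 0.0108% ± 0.00414 of the sum (SD, n = 5), and 0.0102% without replicate 8. Ldha, lactate dehydrogenase A, stood at 16.4, 28.01, 37.2, 36.0 and 50.6 RPKM. Zyx, a focal adhesion protein, stood at 5.83, 10.99, 17.4, 7.69 and 13.4 RPKM, and Arhgdib, a signalling protein of blood cells, at 7.43, 8.01, 15.7, 4.97 and 7.30 RPKM. On the log2(RPKM + 0.5) scale all 11 members at or above 1 RPKM were above their 5-library mean in replicate 8 and none in replicate 6. Among all 12164 genes at that level, 4489 were above it in replicate 8 and 4737 in replicate 6. Macrophage and mesenchymal genes, given below, were also highest in replicate 8, and their part in these values was not tested.

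Of the 36 islet transcription factor genes 32 had means of at least 1 RPKM and 18 of at least 10 RPKM. Mafa, which activates insulin genes in mature beta cells, was the highest with 163, 193, 195, 168 and 132 RPKM. Pax6, which all islet endocrine cells use, followed with 173, 135, 124, 146 and 134 RPKM. Mafa was lowest in replicate 10, and Pax6 was highest in replicate 6.

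Next came Pdx1 (91.4 ± 13.2 RPKM) and Nkx6-1 (85.2 ± 15.9), both factors of beta cell identity, and Neurod1 (83.5 ± 11.01), an E-box binding factor of endocrine cells. Mlxipl, the carbohydrate response factor ChREBP, had 67.1 ± 12.4 RPKM, Isl1, a pan-endocrine homeodomain factor, 65.8 ± 8.53, and Nkx2-2, which maintains beta cell fate, 52.7 ± 7.58 (SD, n = 5). The means of the neighbours from Pdx1 to Neurod1, and from Mlxipl to Isl1, differed by less than 1 SD. Within libraries, Pdx1 exceeded Nkx6-1 in 5 of 5, Nkx6-1 exceeded Neurod1 in 4 of 5 and Mlxipl exceeded Isl1 in 3 of 5. The widest CVs were those of Ptf1a, a factor of acinar cells (0.992, 2.35, 1.97, 3.07 and 7.32 RPKM), and Gata4 (0.580, 1.81, 1.79, 2.29 and 4.72 RPKM); both were lowest in replicate 6 and highest in replicate 10. Under 0.5 RPKM lay Bach2 (0.346) and Foxa1 (0.131), and Pax4, a factor of endocrine progenitors, was listed at 0 in all 5 libraries. A listed value at or near 0 is not proof of absence here, since Rpl26, a ribosomal protein gene used by every cell, was listed at a mean of 0.0532 RPKM.

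Of the 30 G protein-coupled receptor genes 18 had means of at least 1 RPKM. Glp1r, the receptor of the incretin GLP-1, was the highest with 132, 125, 112, 125 and 80.8 RPKM, and replicate 10 lay below the other 4. Sstr3, a somatostatin receptor, followed with 36.8 ± 3.83 RPKM, then Ffar1, the long-chain fatty acid receptor, with 30.6 ± 6.07 and Gipr, the receptor of GIP, with 30.2 ± 6.499 (SD, n = 5). Ffar1 and Gipr did not differ beyond their spread, and Ffar1 was the higher in 3 of 5 libraries. Adra2a, an adrenergic receptor that restrains insulin release, had 22.7 ± 4.10 RPKM, Casr, the calcium-sensing receptor, 21.1 ± 1.90, and Ffar2, a short-chain fatty acid receptor, 11.8 ± 0.663.

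Gcgr (chromosome 11, 120529185 to 120538989), the gene of the glucagon receptor that the series concerns, stood at 22.1, 15.05, 12.02, 22.3 and 19.1 RPKM (18.1 ± 4.51, SD, n = 5). It ranked 3444 of all genes and was lower in replicates 7 and 8 than in replicates 6, 9 and 10. Gcg had the opposite arrangement, with its highest values in replicates 7 and 8. With 5 libraries no correlation was computed.

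The widest spread among receptors was that of Cckar, a cholecystokinin receptor of acinar cells, at 1.17, 3.47, 3.22, 4.83 and 19.4 RPKM (CV 115%), high in replicate 10. Means of 10 of the 30 receptor genes lay under 0.5 RPKM. Among these were the pituitary adenylate cyclase peptide receptor gene Adcyap1r1 (0.262), the adrenergic receptor gene Adrb1 (0.255), Cckbr (0.233), Npy1r (0.0919), the somatostatin receptor genes Sstr5 (0.0360) and Sstr4 (0.0210), the secretin receptor gene Sctr (0.0294), Glp2r (0.00646), and Npy4r, the pancreatic polypeptide receptor gene, listed at 0.

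**Figure D3:**
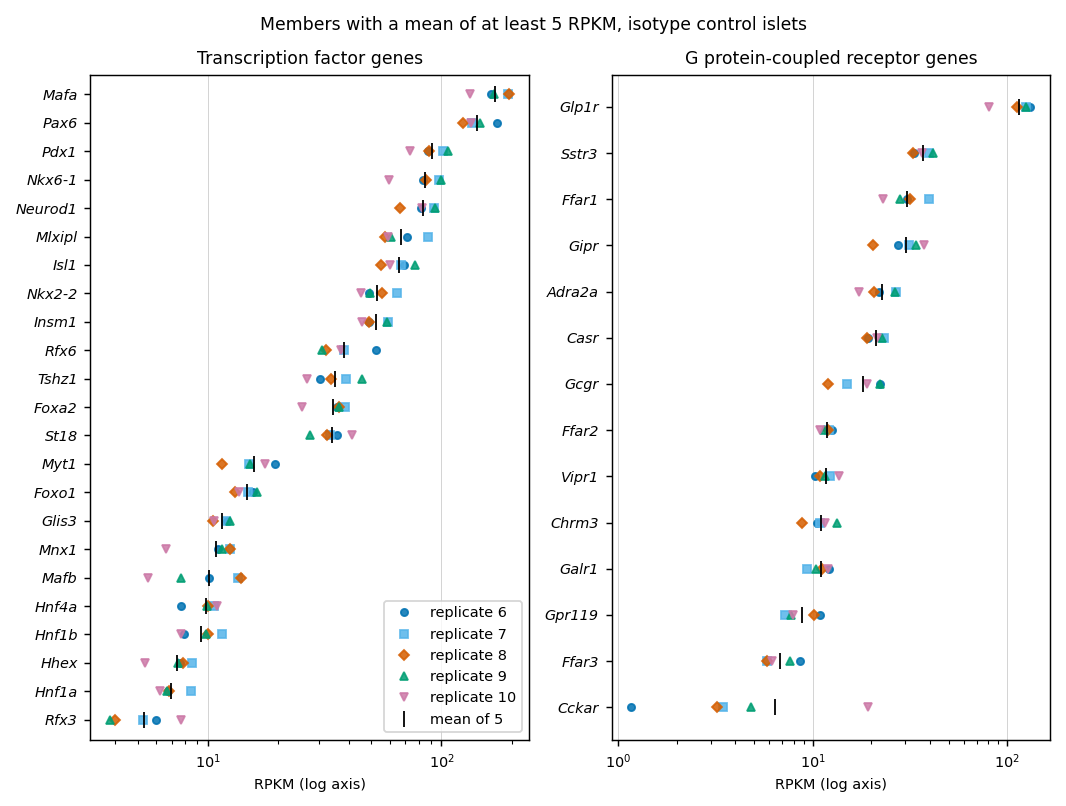
RPKM (log axis) of the transcription factor genes (left) and G protein-coupled receptor genes (right) whose mean reached 5 RPKM; each symbol is 1 library and the black tick is the mean of 5. Mafa, Pax6 and Glp1r lead at 170, 142 and 115 RPKM, and Cckar spreads widely, with replicate 6 lowest and replicate 10 highest.

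Amino acid transporter genes are of interest because glucagon and amino acids form a feedback loop between islet and liver. Of 35 such genes, 26 had means of at least 1 RPKM and 12 of at least 10 RPKM. The highest was Slc3a2, the heavy chain shared by several exchangers, at 64.5, 116, 113, 118 and 92.9 RPKM, lowest in replicate 6. Slc38a10 had 98.1 ± 11.6 RPKM and Slc38a4, a carrier of neutral and cationic amino acids, 95.2 ± 13.2 RPKM (SD, n = 5). The means of these leading genes did not differ beyond their spread. Slc3a2 exceeded Slc38a10 in 4 of 5 libraries, and Slc38a10 exceeded Slc38a4 in 3 of 5.

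They were followed by the taurine transporter gene Slc6a6 (59.7 ± 5.97 RPKM), Slc16a10, an aromatic amino acid carrier (56.6 ± 4.84), Slc7a2 (51.3 ± 7.33), Slc7a8, a light chain partner of Slc3a2 (44.9 ± 9.69), and Slc7a5, another of its partners (38.0 ± 10.3). Slc38a5 (chromosome X, 8271381 to 8280179), a glutamine and neutral amino acid carrier known for its induction in alpha cells when glucagon signalling is blocked, stood at 2.66, 3.29, 4.88, 1.40 and 3.04 RPKM. At a mean of 3.05 ± 1.25 RPKM (SD, n = 5) it ranked 9942 of all genes, highest in replicate 8 and lowest in replicate 9. The widest CVs were those of Slc38a3, a glutamine carrier (0.966, 2.20, 2.09, 1.24 and 6.48 RPKM), and Slc7a11, the cystine and glutamate exchanger (2.09, 3.65, 4.11, 3.13 and 11.9 RPKM), both highest in replicate 10. The 8 members under 0.5 RPKM were Slc38a11 (0.374), Slc1a1 (0.207), Slc1a3 (0.0834), Slc43a1 (0.0655), Slc6a14 (0.0643), Slc1a2 (0.0395), Slc7a9 (0.00792) and Slc7a10 (0.00692).

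Protein folding in the endoplasmic reticulum (ER) carries the load of hormone synthesis, and its genes were all abundant. All 26 members of the ER list had means of at least 10 RPKM and 20 of at least 100 RPKM. The list held 0.661%, 0.891%, 0.829%, 0.998% and 1.33% of the sum, lowest in replicate 6 and highest in replicate 10, the opposite of the insulin share. Hspa5, the chaperone BiP, stood at 668, 817, 788, 942 and 1339 RPKM, and Pdia3, a disulfide isomerase, at 620, 767, 755, 812 and 998 RPKM. Hsp90b1, the chaperone GRP94, had 703 ± 130 RPKM, and Calr, calreticulin, stood at 412, 713, 676, 686 and 750 RPKM. Replicate 6 was the lowest library for 21 of the 26 genes and replicate 10 the highest for 21. Over all 12164 genes at or above 1 RPKM, replicate 6 was lowest for 4227 and replicate 10 highest for 4833. The mean share of the list was 0.942%, 1.012% without replicate 6 and 0.845% without replicate 10. RPKM and shares are both relative to the whole library, so a lower insulin level raises the other values; its part in this order was not tested.

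Antioxidant enzyme genes, which islets are known to express weakly for some members, held 0.181% ± 0.0290 of the sum. Prdx1, a peroxiredoxin, had 277 ± 65.5 RPKM, Gpx3, a secreted glutathione peroxidase, 153 ± 53.5 RPKM, and Txn1, thioredoxin, 118 ± 24.99 RPKM, whereas Sod1, the cytosolic superoxide dismutase, was nearly constant at 272 ± 8.34 RPKM (CV 3.07%). Cat, catalase, stood at 4.16, 7.74, 11.6, 6.71 and 13.01 RPKM, and Sod3, the extracellular dismutase, at 0.423, 1.18, 2.01, 0.853 and 2.66 RPKM. Both were lowest in replicate 6 and highest in replicate 10.

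Ribosomal protein genes held 4.28% ± 0.488 of the sum and were the evenest large list, with a median CV of 10.5% over the 82 members at or above 1 RPKM. Rpl41 had the highest mean, 1176 ± 139 RPKM, followed by Rpl10 (894 ± 107), Rplp1 (795 ± 118) and Rpl27a (780 ± 77.3; SD, n = 5). The nuclear-encoded respiratory chain genes held 0.989% ± 0.132 with a median CV of 11.7%. Their highest members, subunits of ATP synthase, complex I and complex IV, were Atp5l (373 RPKM), Atp5b (263), Ndufa4 (215) and Cox8a (209). The 13 mitochondrially encoded genes held 6.84% ± 1.006 with a median CV of 23.3%, and they moved as a group: all 13 were highest in replicate 8, and 10 of 13 were lowest in replicate 9 and 3 in replicate 10. Of all 12164 genes at or above 1 RPKM, 1514 were highest in replicate 8 and 1113 lowest in replicate 9. Without replicate 8 the share of the 13 mitochondrially encoded genes was 6.52%. ATP6, an ATP synthase subunit, stood at 8213, 9803, 11182, 6685 and 6652 RPKM, and COX1, the catalytic subunit of complex IV, at 8515, 8779, 10235, 6308 and 7029 RPKM.

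Genes of the exocrine pancreas formed the largest group from outside the islet. The 28 acinar genes held 1.92%, 1.93%, 2.67%, 0.544% and 2.23% of the sum (mean 1.86% ± 0.794, SD, n = 5), more than the alpha cell list in 3 of 5 libraries (replicates 6, 8 and 10). This list leaves out Amy2a2, Amy2a3 and Amy2a4, listed at a mean of 1746 RPKM each. The acinar shares and the comparison with the alpha cell list therefore do not count these amylase genes, and the exocrine share is understated. The share in replicate 9 was the lowest, and without that library the mean was 2.19%. Ctrb1 stood at 3655, 3948, 6428, 1461 and 4610 RPKM, Prss2 at 1766, 1629, 2311, 466 and 1803 RPKM, and Cela1 at 1906, 1663, 2230, 318 and 1094 RPKM. Of the 27 members at or above 1 RPKM, 24 were lowest in replicate 9 and 17 were highest in replicate 8. Among all 12164 genes at that level these numbers were 1113 and 1514. On the log2(RPKM + 0.5) scale and relative to all genes, the median member deviated from its 5-library mean by -1.82 in replicate 9 and by 0.84 in replicate 8.

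The acinar genes did not all follow the enzymes. Ptf1a and Rbpjl, subunits of the transcription factor complex that drives digestive enzyme genes, were highest in replicate 10, not in replicate 8. Rbpjl stood at 0.402, 0.563, 0.580, 0.582 and 3.44 RPKM, and thus was not low in replicate 9. Amylase, trypsinogen and elastase copies share sequence, so the values of single family members are uncertain.

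Duct cell genes held 0.0430%, 0.0728%, 0.0627%, 0.0548% and 0.0962% of the sum, lowest in replicate 6 and highest in replicate 10. Their mean share was 0.0659%, 0.0716% without replicate 6 and 0.0583% without replicate 10. Krt7, a keratin of simple epithelia, had 188 ± 31.1 RPKM (SD, n = 5) and was lowest in replicate 10 (140 RPKM). Spp1, osteopontin, a secreted glycoprotein of ducts, stood at 61.6, 255, 163, 133 and 311 RPKM, Krt19, another duct keratin, at 24.5, 65.2, 90.9, 56.2 and 108 RPKM, and Tspan1, a tetraspanin, at 4.23, 6.34, 9.30, 4.22 and 17.0 RPKM. Those 3 genes were highest in replicate 10. Sox9 and Cftr, defining genes of ducts, had means of 0.865 and 0.0864 RPKM and were named after their values were seen.

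Vascular, stromal and blood cell genes were present at far lower levels. The 15 endothelial genes held 0.00739% ± 0.00213 of the sum (SD, n = 5), led by Emcn, endomucin, at 10.3, 12.1, 13.3, 3.82 and 3.56 RPKM, and Egfl7, a secreted factor of vessels, at 11.5, 7.83, 7.71, 5.80 and 3.23 RPKM. Plvap, a protein of fenestrated capillaries, stood at 8.35, 9.32, 10.6, 3.26 and 2.74 RPKM. All 3 genes were higher in replicates 6, 7 and 8 than in replicates 9 and 10. Of the 12 members at or above 1 RPKM, 10 were lowest in replicate 10, against 1824 of all 12164 genes at that level. Without that library the share of the list was 0.00803%.

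The 14 macrophage genes held 0.0202%, 0.0362%, 0.0906%, 0.0205% and 0.0306% of the sum, so replicate 8 held 4.50 times the share of replicate 6. Lyz2, lysozyme of myeloid cells, stood at 63.1, 143, 441, 68.6 and 84.2 RPKM, and Ctss, cathepsin S, at 18.3, 30.04, 97.5, 15.9 and 22.3 RPKM. C1qa, a complement subunit made by tissue macrophages, stood at 28.6, 30.6, 53.1, 21.5 and 20.8 RPKM, and Cd74, the invariant chain of antigen presentation, at 22.3, 28.7, 50.6, 13.53 and 33.2 RPKM. All 13 members at or above 1 RPKM were above their 5-library mean in replicate 8, and 11 of them were highest there. Of all 12164 genes at that level, 4489 were above their mean in that library and 1514 were highest. Without replicate 8 the share was 0.0269%, against 0.0396% with it.

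The 14 mesenchymal and pericyte genes followed the same library, at 0.00260%, 0.00674%, 0.0212%, 0.00615% and 0.00790% of the sum, an 8.15-fold range. Col3a1, a fibrillar collagen, stood at 2.94, 10.2, 42.8, 8.53 and 14.7 RPKM, Col1a1, the main collagen chain of connective tissue, at 1.79, 13.3, 45.1, 9.58 and 8.37 RPKM, and Dcn, decorin, at 4.56, 6.76, 23.3, 2.51 and 9.97 RPKM. Rgs5, a pericyte gene, did not share this pattern (2.92 ± 0.541 RPKM, CV 18.5%, highest in replicate 6) and was named after its value was seen. Without replicate 8 the share of the list was 0.00585%.

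Lymphocyte genes held 0.00262% ± 0.00133, and Cd79a, a subunit of the B cell receptor, led them at 20.7, 4.68, 10.5, 3.54 and 7.85 RPKM, highest in replicate 6. Glial genes of Schwann cells held 0.00135% ± 0.000773, with Ngfr, the neurotrophin receptor p75, at 0.531, 1.78, 2.14, 5.69 and 3.72 RPKM. Red blood cell genes held 0.00177% ± 0.000907, and the highest haemoglobin gene, Hba-a1, stood at 11.4, 6.78, 12.2, 3.29 and 4.595 RPKM. Adipocyte genes held 0.00156% ± 0.000675; Fabp4, a fatty acid binding protein that capillary endothelium also makes, had 12.8 ± 6.35 RPKM, whereas Adipoq, adiponectin, had a mean of 0.0437 RPKM and Lep, leptin, named after its value was seen, was listed at 0.

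Genes of the Y chromosome were present in every library. Eif2s3y, a translation initiation subunit, stood at 31.3, 25.6, 24.1, 30.7 and 45.8 RPKM, Ddx3y, an RNA helicase, at 23.0, 14.7, 12.9, 16.1 and 28.5 RPKM, and Uty and Kdm5d, histone demethylase genes, at 9.47 ± 1.65 and 6.39 ± 0.960 RPKM (SD, n = 5). Xist, the X inactivation RNA of female cells, had a mean of 0.0280 RPKM and was named after its value was seen. The labels give no sex, and all 5 libraries had this male pattern.

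Imprinted and long non-coding transcripts were among the abundant RNAs. Gnas, the stimulatory G protein alpha subunit, had 684 ± 103 RPKM, Meg3, a maternally expressed non-coding RNA, 400 ± 129 RPKM, and Malat1, a nuclear RNA, 382 ± 98.3 RPKM (SD, n = 5). Neat1, the RNA of nuclear paraspeckles, stood at 135, 197, 120, 214 and 457 RPKM, high in replicate 10. Snrpn, listed at 26.9 RPKM in replicate 6, at 0 in replicates 7 and 8, at 0.0908 in replicate 9 and near 0 in replicate 10, overlaps Snurf, so the division of reads between these genes is uncertain.

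Reg genes encode secreted lectins of the pancreas that are known to rise with injury. The 7 Reg genes held 0.0887%, 0.0422%, 0.0757%, 0.0385% and 0.202% of the sum, highest in replicate 10; without that library the mean was 0.0613%, against 0.0894% with it. Reg1 stood at 573, 265, 519, 202 and 882 RPKM and Reg2 at 99.5, 38.3, 76.5, 16.6 and 121 RPKM. Reg3b stood at 67.2, 33.0, 51.6, 64.7 and 334 RPKM and Reg3g at 8.74, 8.54, 10.4, 12.2 and 79.3 RPKM. Reg1 and Reg2 were low in replicates 7 and 9 as well as high in replicate 10, whereas Reg3b and Reg3g were high in replicate 10 alone.

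Immediate early genes, which are known to rise within minutes of a stimulus or of tissue handling, varied widely, and the list with heat shock genes had a median CV of 53.4%. Egr1, a zinc finger factor, stood at 2.54, 106, 26.0, 48.1 and 3.21 RPKM, and Fos, a subunit of the factor AP-1, at 1.69, 54.0, 9.98, 30.8 and 5.83 RPKM. Btg2, an antiproliferative gene, stood at 50.1, 93.5, 59.0, 109 and 59.1 RPKM, and Junb, an AP-1 subunit, at 14.3, 83.1, 38.7, 81.9 and 25.002 RPKM. These 4 genes were highest in replicates 7 and 9, and lower in replicates 6, 8 and 10. Of the 18 members of the immediate early and heat shock list at or above 1 RPKM, 15 were lowest in replicate 6. Among all 12164 genes at that level, 4227 were lowest there. The list held 0.131% of the sum, and 0.144% without that library. Hspa8, a constitutive heat shock protein and the highest of the list, varied far less (663 ± 115 RPKM, SD, n = 5).

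Interferon response and antigen presentation genes held the steadiest share, 0.0647% ± 0.00179 of the sum (SD, n = 5), with a 1.07-fold range between libraries. That share was carried by H2-K1 (213 ± 12.4 RPKM) and H2-D1 (151 ± 17.3 RPKM), class I antigen-presenting molecules, and B2m, their partner beta-2 microglobulin (98.6 ± 37.6 RPKM). Isg15, an interferon-induced ubiquitin-like protein, stood at 4.48, 0.960, 2.14, 1.15 and 0.206 RPKM, so single members varied although the share hardly did. The summed RPKM of the list was less even, from 453 in replicate 10 to 595 in replicate 8. Of the 16 members at or above 1 RPKM, 10 were highest in replicate 6 and 10 were lowest in replicate 10. Among all 12164 genes at that level these numbers were 1767 and 1824.

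Cell division genes were low. The 17 genes held 0.00106%, 0.00148%, 0.00271%, 0.00267% and 0.00475% of the sum, and 10 of them had means of at least 1 RPKM. Top2a, topoisomerase II alpha, stood at 1.12, 1.68, 3.14, 3.16 and 4.42 RPKM, and Mki67, the proliferation antigen Ki-67, at 1.09, 1.22, 2.62, 1.77 and 3.995 RPKM. Of the 10 members, 9 were lowest in replicate 6 and 9 were highest in replicate 10, against 4227 and 4833 of all 12164 genes. The mean share was 0.00254%, 0.00291% without replicate 6 and 0.00198% without replicate 10. Which cells the transcripts came from was not measured, and replicate 10 was also the library with the highest duct and Reg shares and the lowest insulin share; their part in these values was not tested.

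**Figure D4:**
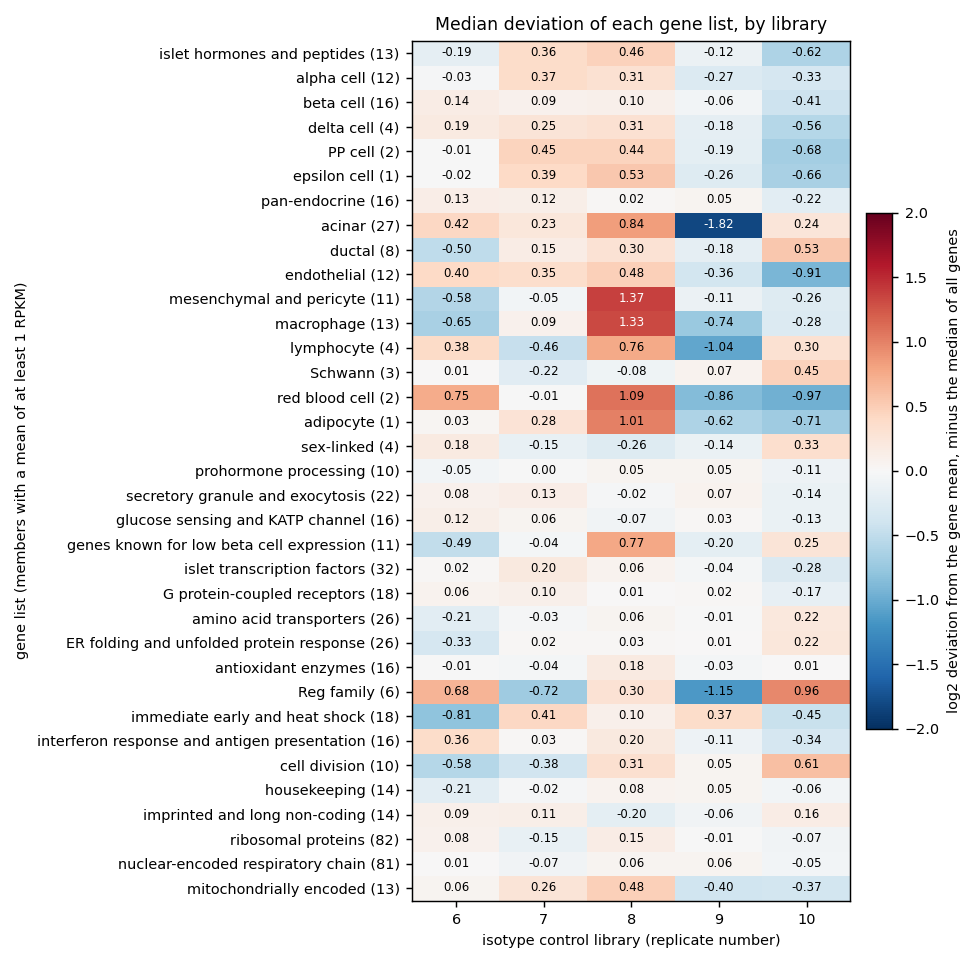
Median deviation of the members of each gene list (rows, with the number of members at or above 1 RPKM) in each isotype control library (columns), as log2(RPKM + 0.5) minus the gene's mean over the 5 libraries, minus the same median over all genes. Replicate 9 is low in acinar genes (-1.82), replicate 8 is high in mesenchymal (1.37) and macrophage genes (1.33), and replicate 10 is low in endothelial (-0.91) and beta cell genes (-0.41) and high in Reg genes (0.96).

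Each of these libraries had its own profile of deviations. The median of all genes itself deviated by 0.11 in replicate 10 and by -0.07 to 0.05 in the others, and the values below are relative to it. Replicate 6 had low immediate early (-0.81), macrophage (-0.65), mesenchymal (-0.58), cell division (-0.58), duct (-0.50) and ER genes (-0.33). Genes that beta cells keep low were also low there (-0.49). Reg (0.68) and red blood cell genes (0.75, 2 members) were high. Replicate 8 had high mesenchymal (1.37), macrophage (1.33), acinar (0.84) and mitochondrially encoded genes (0.48). Replicate 9 differed from the rest above all in its acinar genes (-1.82) and also had low Reg genes (-1.15). Low there too were lymphocyte (-1.04, 4 members), red blood cell (-0.86, 2 members) and macrophage genes (-0.74).

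Replicate 10 had low beta cell (-0.41), alpha cell (-0.33), delta cell (-0.56) and endothelial genes (-0.91), beside high duct (0.53), Reg (0.96) and cell division genes (0.61). In that library all 5 endocrine cell type lists (alpha, beta, delta, PP and epsilon) lay below the median of all genes. The same held in replicate 9, by less (alpha -0.27, beta -0.06, delta -0.18, PP -0.19 and epsilon -0.26). The PP list has only 2 genes and the epsilon list 1. Housekeeping genes deviated by -0.21 in replicate 6 and by at most 0.08 elsewhere, and the nuclear-encoded respiratory chain genes by at most 0.07 in size in any library. No cause of these profiles was tested.

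Over all 12164 genes at or above 1 RPKM the median CV among the 5 libraries was 16.2%, and 623 genes (5.12%) had a CV above 50%. The median CV was 25.3% between 1 and 3 RPKM, where few reads add counting error, and 14.0% between 10 and 30 RPKM. It was 25.2% among the 40 genes of at least 1000 RPKM, which include the hormone, acinar and mitochondrially encoded genes described above. The CV exceeded 50% in 15 of 27 acinar, 10 of 13 macrophage, 7 of 11 mesenchymal and 6 of 6 Reg genes at or above 1 RPKM, against 0 of 16 beta cell, 0 of 12 alpha cell and 0 of 16 pan-endocrine genes.

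**Figure D5:**
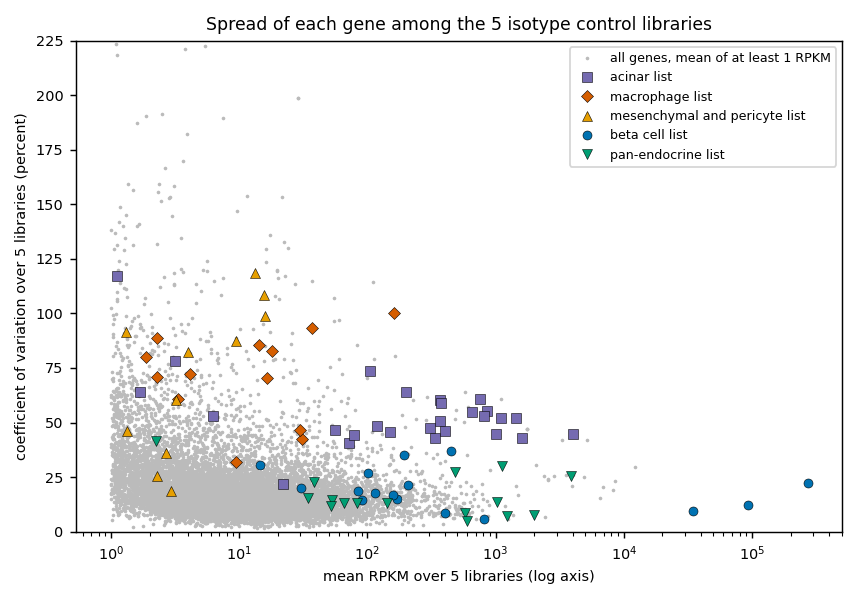
Coefficient of variation over the 5 isotype control libraries against mean RPKM (log axis) for the 12164 genes whose mean reached 1 RPKM; grey points are genes and coloured symbols are members of 5 cell type lists. Acinar genes lie above 40% except Bhlha15, macrophage and mesenchymal genes reach 119%, and beta cell and pan-endocrine genes lie below 42%.

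The 20 genes of largest CV with a mean of at least 10 RPKM fell mostly into genes high in replicate 10 and genes high in replicate 8. Those highest in replicate 10 included the cornified envelope genes Sprr2a1 and Sprr2a2, which held identical values of 0.117, 2.48, 2.15, 8.21 and 130 RPKM, and the glutathione transferase genes Gsta1, Gsta2 and Gsta4. Gsta2 stood at 0.348, 0.954, 4.09, 9.78 and 42.6 RPKM, and Gsta1 at 0.776, 23.2, 26.4, 76.7 and 148 RPKM. Tff1, a mucosal trefoil peptide, stood at 0, 3.04, 2.11, 40.9 and 66.4 RPKM. These genes, known from epithelia, were lowest in replicate 6 and second highest in replicate 9. Gm3776 and Gm2663, predicted genes, were also highest in replicate 10 (67.4 and 80.2 RPKM), while Sprr2a3 was highest in replicate 9 (58.7 RPKM).

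Those highest in replicate 8 were Mmp12, the macrophage metalloelastase, at 3.57, 7.23, 51.8, 7.07 and 11.5 RPKM, Gpnmb, a glycoprotein of phagocytes, at 5.91, 13.1, 61.9, 9.49 and 8.37 RPKM, the chemokine gene Ccl6, at 8.33, 13.9, 55.9, 7.34 and 10.3 RPKM, and Fn1, fibronectin, at 3.76, 16.2, 61.2, 8.03 and 9.61 RPKM. Col1a1 and Col1a2 joined them, and all 6 genes are known from macrophages or connective tissue. Mir6240 was high in replicate 6 (59.2 RPKM), and Eno1b, an enolase-like gene, ran from 0.802 RPKM in replicate 7 to 77.3 RPKM in replicate 9.

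At the other end, the 15 genes of smallest CV with a mean of at least 10 RPKM varied by 1.69% to 2.72%. The steadiest was Fam207a at 13.8, 13.6, 14.0, 14.0 and 13.54 RPKM. Others were Cwc27, a spliceosome-associated protein, Osbpl2, an oxysterol-binding protein, Ttc8, a subunit of the BBSome of cilia, Oxa1l, an insertase of the mitochondrial inner membrane, Mvp, the major vault protein, and Ss18, a subunit of a chromatin remodelling complex. The list also held Cmbl, Nfyc, Snx1, Hibadh, Cops4, Pex3, 1110004E09Rik and 2510009E07Rik. Their means lay between 10.03 and 37.4 RPKM, and no member of the 35 gene lists was among them.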

How the data were processed

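Gene expression was measured by RNA sequencing in mouse islets, and the 5 isotype control columns of 1 table of gene RPKM values were used; the other 5 columns were not used here. The RPKM values were computed and deposited by the authors, per the file headers. The submitters' processing notes name CASAVA 1.8.2, FastQC, GRCm38 and mm10 without their roles; neither aligner, counting method nor strand setting was given in the sources used here.

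From these values shares of the summed RPKM, ratios, coefficients of variation and deviations on the log2(RPKM + 0.5) scale were computed (Python 3.11.15, numpy 2.4.6, pandas 2.3.3, matplotlib 3.10.9). Depth was estimated from the step that 1 read makes in low values of 15621 genes with a single transcript length; 68.3% to 71.1% of low values per library then lay within 0.1 of a whole read, against 20% for unrelated steps, part of which follows from choosing the step. The estimate and the ranking by spread were tested on simulated data. With 1 group no difference was tested; an exact sign-flip test over 5 libraries cannot go below p = 0.0625. Another 282 genes had a value above 0 and under 0.0001 RPKM, so reads seem to have been divided between copies.

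The libraries and the 35 gene lists were chosen with earlier results of these data known. Named were the 30 highest genes, all islet hormones, the 4 highest (8 for factors, receptors and transporters, with members under 0.5 RPKM) and the 2 most variable members of each list, the 20 most and 15 least variable genes at or above 10 RPKM, Gcgr and Slc38a5. Outside this rule Cftr, Lep, Mdh1, Pcsk1, Pou3f4, Ptprn, Rgs5, Rpl26, Slc2a1, Sox9 and Xist were chosen after their values were seen. Some genes that the rule names are not reported here. Alternatives left out each library or changed the denominator, the scaling or the minimum level. Coordinates and start regions come from RefSeq (GRCm38.p6), where 685 of 686 described genes matched.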

Additional observations from a re-analysis of the deposited data

Results flagged for a closer look

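Of 256 groups of 5 values (shares, ratios and named genes), 33 (12.9%) held a library whose gap to its nearest neighbour exceeded 0.71 of the whole range; chance gives about 1 in 20 for groups not chosen by their spread. Replicate 8 accounted for 14, replicate 10 for 12, replicate 6 for 6 and replicate 9 for 1. Many of the genes were named because they vary most, among them 13 of the 30 genes listed here that are in the 20 of largest CV, so the share cannot be read against chance, and genes of 1 list are not independent.

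Replicate 8 stood above the rest in the shares of mesenchymal genes (0.0212%, others 0.00260% to 0.00790%) and macrophage genes (0.0906%, others 0.0202% to 0.0362%). Macrophage and matrix genes with the same library on top were Mmp12 (51.8 RPKM, others 3.57 to 11.5), Gpnmb (61.9, others 5.91 to 13.1), Ccl6 (55.9, others 7.34 to 13.9), Lyz2 (440.6, others 63.1 to 143) and Ctss (97.5, others 15.9 to 30.04). Fn1 stood at 61.2 RPKM (others 3.76 to 16.2), Col1a2 at 41.1 (others 1.91 to 9.80) and Col1a1 at 45.1 (others 1.79 to 13.3). Among genes that beta cells keep low, Arhgdib stood at 15.7 RPKM (others 4.97 to 8.01), Igfbp4, a binding protein of insulin-like growth factors, at 10.6 (others 1.28 to 3.36) and Pdgfra, a receptor of mesenchymal cells, at 3.40 (others 0.582 to 1.18). The ribosomal protein gene Rpl27a stood at 917 RPKM (others 730.0 to 757).

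Replicate 10 was high in Sprr2a1 and Sprr2a2 (130.2 RPKM each, others 0.117 to 8.21), Gsta2 (42.6, others 0.348 to 9.78), Gm2663 (80.2, others 2.39 to 16.7), Reg3g (79.3, others 8.54 to 12.2) and Reg3b (333.7, others 33.0 to 67.2). It was also high in Rbpjl (3.44 RPKM, others 0.402 to 0.582), Cckar (19.4, others 1.17 to 4.83), Slc38a3 (6.48, others 0.966 to 2.20), Slc7a11 (11.9, others 2.09 to 4.11) and Neat1 (457, others 120.5 to 214). It was low in Pcsk2 (770.5 RPKM, others 899.8 to 914).

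Replicate 6 was high in Slc30a8 (735 RPKM, others 334 to 423), Slc2a2 (315, others 152 to 174), Mir6240 (59.2, others 3.45 to 13.2), Snrpn (26.9, others 0 to 0.0908) and the Ppy to Pyy ratio (1.76, others 1.23 to 1.35). It was low in Calr (412 RPKM, others 676 to 750). Replicate 9 was high in Pkm (442 RPKM, others 308 to 345).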

How the results depend on the processing

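Over 68 results and 501 alternative values, 450 were labelled the same and 51 moved. For shares, ratios, levels and deviations, same meant a change smaller than the SD between libraries. Counts were held to a fixed ratio, and the median CV and SD to the SD of their values without each library. Reversal was looked for only in deviations, and 0 reversed. Of the alternatives, 327 left out a library, and 7 of these moved. Leaving 1 of 5 libraries out cannot shift a mean by a full SD. For shares, ratios and hormone levels that label was therefore fixed beforehand. All 104 alternatives of the 13 deviations examined kept their sign. Most of these 13 were among the larger deviations described above, so a kept sign was likely beforehand. Scaling a whole library nearly cancels in them, because the median of all genes is subtracted. The number of genes for 50% of the sum was 3.75 to 7 without each library in turn (3.75 without replicate 10), 204 without the insulin genes and 4 by the median over libraries, an alternative chosen after seeing the data; for 90% it was 4542 without the insulin genes. Without the insulin genes in the sums, the shares were 2.95% for alpha, 8.41% for beta, 0.756% for delta, 1.09% for PP and 0.000907% for epsilon cell genes, 2.55% for pan-endocrine, 3.36% for acinar and 0.117% for duct genes. They were 0.0136% for endothelial, 0.0161% for mesenchymal, 0.0720% for macrophage, 0.00475% for lymphocyte, 0.00238% for Schwann cell, 0.00329% for red blood cell and 0.00286% for adipocyte genes. The 20 pathway and sex-linked lists moved with that denominator too, which removes the 2 largest genes by construction.

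The median CV was 13.9% to 17.0% without each library in turn (13.9% without replicate 10), 20.9% with the same sum in each library, 14.2% at or above 10 RPKM and 14.6% at or above 50 RPKM. Of the 20 most variable genes 12 to 17 were shared without each library (12 without replicate 10, 13 without replicate 8), 3 at a minimum of 1 RPKM and 2 at 50 RPKM. No paired analysis was possible because only 1 group was used. At the estimated depth 3 reads in a transcript of 2 kb amount to 0.101 to 0.121 RPKM, so values near or below that are not distinguished from 0.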
